A study of Mus musculus with 12 samples.

Results

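The type I interferon response genes are the genes that cells switch on when an interferon binds its receptor. A list of 52 of them was taken by gene symbol from the RNA-seq count table of 3T3-L1 adipocytes, using the feature with the highest mean count where a symbol had several. A feature was found for 50 of the 52, out of 27473 features in the table. Parp9 and Ifi47 were not analysed here. Of the 50, 49 had enough reads for the tests, and the remaining one, Irgm2, was too low.

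3T3-L1 is an established mouse preadipocyte line that was differentiated into fat cells with dexamethasone, IBMX and insulin. The study asked which genes respond to Dnmt3a, an enzyme that places new methyl groups on DNA, in adipocytes. Mature adipocytes received a lentivirus on day 8 and were harvested 4 days after transduction, with 3 libraries in each of 4 groups. The Dnmt3a group carried Dnmt3a in the pCDH expression vector, and its control, GFP, carried GFP in pCDH. The shDnmt3a group carried a hairpin against Dnmt3a, and its control, shScr, a scrambled hairpin. All 4 groups thus shared the cell line, the differentiation cocktail and a lentiviral transduction, and no untransduced cells were analysed here. The labels do not say which of the study's Dnmt3a hairpins was sequenced. The sources leave unsaid whether a group's 3 libraries are 3 cultures or 1, and the p-values therefore cover library-to-library spread, possibly technical.

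Type I interferons bind the receptor chains Ifnar1 and Ifnar2, which activate the kinases Jak1 and Tyk2. These phosphorylate STAT proteins such as Stat2, which join Irf9 in a complex that enters the nucleus and binds a DNA sequence called the interferon-stimulated response element (ISRE) in front of its target genes. The targets encode sensors of foreign RNA, enzymes and GTPases that block viral growth, and feedback regulators. Fat cells, like most cells, carry this pathway.

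Total counts ran between 29084732 and 47341091 per library. Levels are given as CPM, counts per 1000000 counts after scaling over all 12 libraries. Dnmt3a itself had 2735 to 2790 CPM in Dnmt3a libraries, against 90.3 to 96.8 CPM in GFP libraries, and 39.3 to 40.8 CPM in shDnmt3a libraries, against 78.8 to 86.5 CPM in shScr libraries. The 10 adipocyte markers summed to 22600 to 23298 CPM in Dnmt3a libraries, 14397 to 14806 CPM in shDnmt3a libraries, 14746 to 15176 CPM in shScr libraries and 18138 to 19070 CPM in GFP libraries. The sum was thus high in every library, although 1 of the markers, Lep, had only 0.26 to 0.63 CPM. By the test described below, 9 of the 10 rose in Dnmt3a against GFP, where 14.3% of all features rose. On knock-down 4 fell and 3 rose, where 22.5% of all features fell and 23.3% rose. The part of these marker changes in the interferon results was not tested.

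The 50 genes as a set were at their highest in the shScr libraries. Their summed level was 2351 to 2393 CPM in Dnmt3a libraries, against 2696 to 2706 CPM in GFP libraries. It was 2854 to 2886 CPM in shDnmt3a libraries, against 5365 to 5441 CPM in shScr libraries. The 4 groups did not overlap in this sum, and the shDnmt3a libraries lay much closer to the GFP libraries than to their own control. Set against each gene's mean in GFP libraries, the median gene lay at −0.34 to −0.27 on the log2 scale in Dnmt3a libraries, 0.12 to 0.15 in shDnmt3a libraries and 1.03 to 1.06 in shScr libraries. These are bulk libraries, in which fewer cells of a type and less RNA per cell cannot be told apart.

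**Figure D1:**
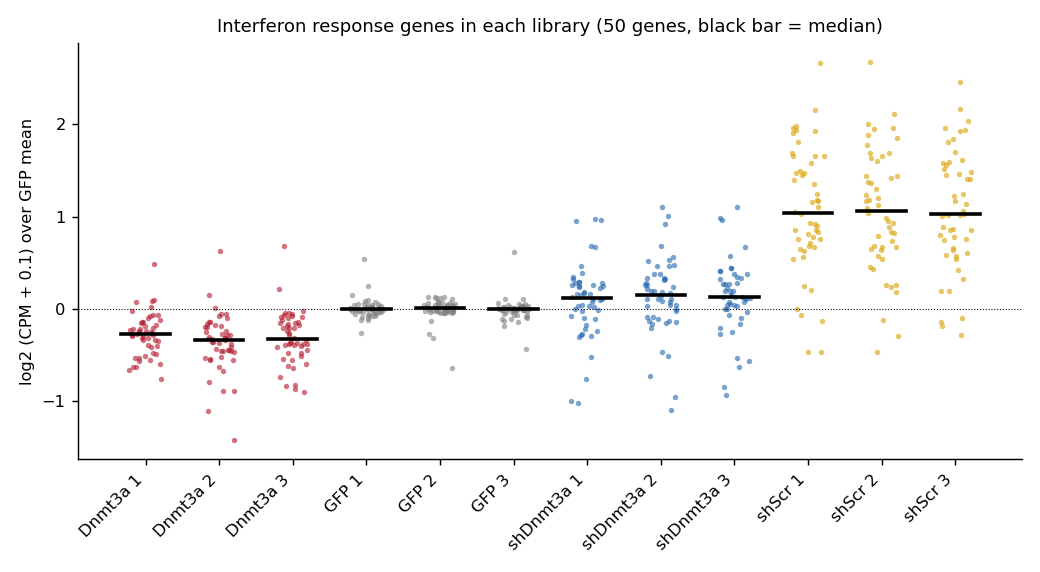
Each point is 1 of the 50 interferon response genes in 1 library, as the log2 ratio of its CPM (plus 0.1) to its mean in GFP libraries, and black bars are medians over genes. The medians lie between −0.34 and −0.27 in the 3 Dnmt3a libraries, near 0 in the GFP libraries, between 0.12 and 0.15 in shDnmt3a and between 1.03 and 1.06 in shScr.

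The 2 comparisons of the study both gave lower levels of these genes. In Dnmt3a against GFP, 39 of the 49 tested genes fell, 1 rose and 9 did not pass the test (edgeR quasi-likelihood test, Benjamini-Hochberg adjusted p under 0.05 over all features). In the same comparison 12.9% of all 14168 tested features fell and 14.3% rose. The median log2 fold change was −0.32 over the genes and −0.01 over all features. In shDnmt3a against shScr, 46 of 49 fell, 1 rose and 2 did not pass, where 22.5% of all 14115 tested features fell and 23.3% rose. The median was −0.94 over the genes and about 0 over all features (−0.00027). Overexpression and knock-down of Dnmt3a thus went with a shift of this list in the same direction, and 38 of the 49 genes fell in both comparisons. All 3 Dnmt3a libraries lay below all 3 GFP libraries for 40 genes, and all 3 shDnmt3a libraries lay below all 3 shScr libraries for 47. The share of all features that fell in both comparisons was not counted, nor was the share separated in this way. Nothing is therefore read from the joint count or the separation counts as particular to the list.

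Several of these genes lie in clusters of relatives on the mm9 genome that the counts use. Loci were taken by symbol from GENCODE for 49 of the 50. That of Gbp6 was left out, because none of the 11 features next to the counted one in the table lies near it. The counts of this feature were kept under the symbol Gbp6, but they may belong to another gene. Chromosome 5 holds 8 of the 49, with Oas1a, Oas1b, Oas1g, Oas2 and Oas3 between 121180342 and 121357536, Oasl1 and Oasl2 beside each other between 115346943 and 115387924, and Gbp10 between 105643926 and 105668552. The guanylate-binding protein genes Gbp2, Gbp3 and Gbp5 lie on chromosome 3 between 142159864 and 142300972, and Mx1 and Mx2 on chromosome 16 between 97668642 and 97782506. Rsad2 and Cmpk2 are neighbours on chromosome 12, between 27127618 and 27164700. The 2 genes that moved against the rest, Isg20 (chromosome 7, 86058310 to 86065248) and Ifi27l2a (chromosome 12, 104680377 to 104681890), lie outside these clusters. So do genes of the list that fell in both comparisons, such as Irf7, Stat2 and Usp18.

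The stretches around the start sites show the element that defines many of these genes. RefSeq promoter windows (GRCm38.p6, 250 bases before to 50 after a start site) were found for 37 of the 50 genes. The core searched was GAAA, 2 bases of any kind and GAAA, on either strand, which is the part of the ISRE that interferon regulatory factors contact. It occurred in 21 of the 37 genes (56.8%), against 1079 of 27025 genes in the whole promoter table (3.99%). In Ddx58, Eif2ak2, Ifih1, Ifitm3 and Trim21 every core found began after the start site. The core of the GAS element, bound by STAT dimers and searched as TTC, 3 bases of any kind and GAA, which reads the same on both strands, occurred in 12 of 37 (32.4%) against 2582 of 27025 genes (9.55%). Both are descriptions of letters in a window and not shown binding sites.

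Stretches from 8 genes are shown as examples that were picked by hand and not by a rule. Among them every gene that fell on knock-down carries a core, which is not so for the list. Cmpk2 (−1.65), Oasl2 (−1.26) and Irf7 (−1.20) fell on knock-down and had a window without a core. Each stretch shown runs 5′ to 3′ along the gene and ends before the start site, and capitals mark the ISRE cores, with overlapping cores joined.
Ifit3, chr19:34583359-34583528, plus strand: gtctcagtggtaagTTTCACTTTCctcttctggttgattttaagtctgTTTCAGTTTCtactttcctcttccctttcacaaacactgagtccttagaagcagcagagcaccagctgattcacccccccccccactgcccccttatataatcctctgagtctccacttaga
Ifit1, chr19:34640769-34640888, plus strand: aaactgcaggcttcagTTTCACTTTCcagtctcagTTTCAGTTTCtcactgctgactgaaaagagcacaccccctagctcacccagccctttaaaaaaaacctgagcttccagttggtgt
Isg15, chr4:156200819-156200908, minus strand: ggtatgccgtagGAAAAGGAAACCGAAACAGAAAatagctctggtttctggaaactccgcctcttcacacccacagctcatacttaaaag
Oas1a, chr5:120907526-120907585, minus strand: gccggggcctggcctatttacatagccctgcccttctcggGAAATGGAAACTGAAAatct
Oas1g, chr5:120887614-120887673, minus strand: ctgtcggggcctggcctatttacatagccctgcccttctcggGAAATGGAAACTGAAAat
Gbp3, chr3:142559974-142560043, plus strand: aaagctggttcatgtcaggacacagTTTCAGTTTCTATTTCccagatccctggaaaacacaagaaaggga
Bst2, chr8:71537473-71537612, minus strand: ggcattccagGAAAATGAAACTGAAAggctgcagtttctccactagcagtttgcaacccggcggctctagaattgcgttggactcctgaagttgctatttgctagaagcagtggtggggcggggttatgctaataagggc
Isg20, chr7:78913304-78913423, plus strand, with no core: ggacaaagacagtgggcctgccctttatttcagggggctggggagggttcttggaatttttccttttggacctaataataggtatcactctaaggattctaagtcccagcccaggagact

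Isg15 had 3 overlapping cores in this stretch, and Ifit3 and Ifit1 had 2 separate ones each. The neighbouring paralogs Oas1a and Oas1g carried the same pair of overlapping cores, the nearer starting 14 and 12 bases before their start sites. Among genes with a window that were tested, the median log2 fold change of shDnmt3a against shScr was −1.02 in the 20 genes with a core and −0.79 in the 16 without. For Dnmt3a against GFP the medians were −0.32 and −0.26. These medians are given as a description, and their difference was not tested. The windows held a median of 6 CpG sites, the substrate of Dnmt3a, against 7 over all windows, and 70.5% of the 44 windows of these genes held under 10, against 56.5% of all windows. DNA methylation at these windows was not analysed here.

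**Figure D2:**
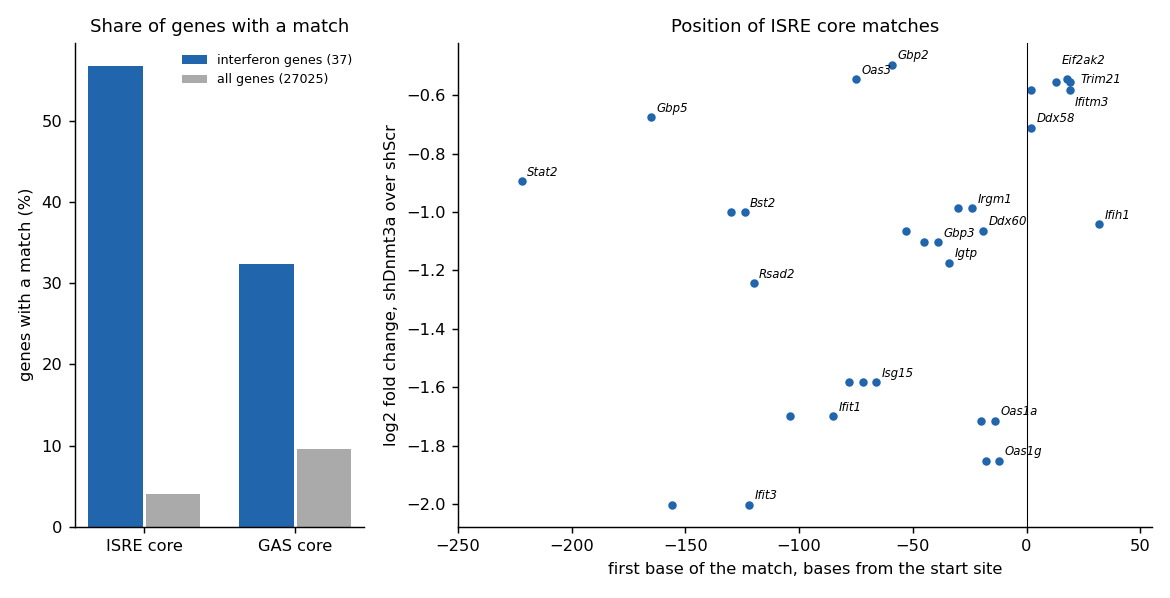
Left, percent of the 37 interferon response genes with a promoter window and of all 27025 genes that hold an ISRE core or a GAS core. Right, the start of each ISRE core in bases from the start site (0) against the gene's log2 fold change of shDnmt3a over shScr; the cores of Ifit3 start 156 and 122 bases upstream, and all genes plotted lie below 0.

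Of the 4 transcription factors that carry the signal, 3 fell in Dnmt3a libraries and all 4 fell on knock-down, with median log2 fold changes of −0.24 and −0.65. Over all features 12.9% fell in Dnmt3a against GFP and 22.5% on knock-down. Irf7, which amplifies interferon production, had 32.2, 30.9 and 33.5 CPM in Dnmt3a libraries, against 39.5, 37.8 and 39.1 CPM in GFP libraries. It had 39.6, 38.1 and 38.8 CPM in shDnmt3a libraries, against 87.5, 89.6 and 92.1 CPM in shScr libraries. The groups of each comparison did not overlap, and the shDnmt3a range overlapped that of GFP libraries. Its log2 fold changes were −0.27 (SE 0.05, adjusted p = 0.00013) in Dnmt3a against GFP and −1.20 (SE 0.04, adjusted p = 1.97e-14) in shDnmt3a against shScr.

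Stat2, a subunit of the complex that binds the ISRE, had 52.6, 51.1 and 53.8 CPM in Dnmt3a libraries, against 67.8, 63.4 and 65.6 CPM in GFP libraries. On knock-down it had 77.7, 70.4 and 67.7 CPM in shDnmt3a libraries, against 125, 144 and 134 CPM in shScr libraries. Neither pair of groups overlapped for Stat2. Stat2 changed by −0.32 (SE 0.04, adjusted p = 7.39e-07) and by −0.90 (SE 0.05, adjusted p = 4.70e-11) on the log2 scale. Its partner Irf9, the DNA-binding subunit, had 29.1, 31.0 and 34.6 CPM in Dnmt3a libraries, against 37.8, 36.2 and 36.3 CPM in GFP libraries. It had 41.0, 42.8 and 42.1 CPM in shDnmt3a libraries, against 58.4, 54.7 and 54.6 CPM in shScr libraries. Irf9 thus moved the same way in both comparisons, by −0.22 (SE 0.06, adjusted p = 0.0033) and −0.41 (SE 0.05, adjusted p = 5.94e-07). The first of these calls was lost without Dnmt3a replicate 1 (adjusted p = 0.0561).

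Irf1, a factor that responds to several cytokines, moved least. It had 73.3, 70.5 and 71.3 CPM in Dnmt3a libraries, against 76.4, 72.8 and 74.1 CPM in GFP libraries, and these ranges overlapped. It had 76.0, 80.2 and 77.2 CPM in shDnmt3a libraries, against 88.2, 89.2 and 85.3 CPM in shScr libraries, a separate but close range. The log2 fold change was −0.06 (SE 0.04, adjusted p = 0.344) in Dnmt3a against GFP and −0.16 (SE 0.04, adjusted p = 0.00204) on knock-down.

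All 6 RNA and DNA sensors fell in Dnmt3a against GFP, where 12.9% of all features fell, and all 6 on knock-down, where 22.5% fell. Their log2 fold changes lay between −0.51 and −0.19 in Dnmt3a against GFP and between −1.06 and −0.54 in shDnmt3a against shScr. Dhx58, a regulator of the RIG-I family of viral RNA sensors, had 31.1, 32.3 and 30.4 CPM in Dnmt3a libraries, against 44.2, 44.3 and 44.96 CPM in GFP libraries. It had 52.03, 47.7 and 51.0 CPM in shDnmt3a libraries, against 99.3, 101 and 104 CPM in shScr libraries. The shDnmt3a level lay just above that of GFP libraries and far below the shScr range. Its log2 fold changes were −0.51 (SE 0.05, adjusted p = 8.67e-10) and −1.01 (SE 0.04, adjusted p = 3.57e-13). Ddx58 and Ifih1, the RIG-I and MDA5 helicases that detect viral RNA in the cytoplasm, had log2 fold changes of −0.32 and −0.37 in Dnmt3a against GFP and −0.71 and −1.04 on knock-down. The call of Zbp1, a sensor of Z-form nucleic acids, in Dnmt3a against GFP (−0.30, adjusted p = 0.0161) was lost without GFP replicate 3 or Dnmt3a replicate 2 (adjusted p = 0.0678 and 0.0968).

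The 3 IFIT genes, whose proteins bind foreign RNA and block its translation, form a cluster on chromosome 19 (mm9, 34625184 to 34724499). Ifit3 had 69.9, 71.8 and 69.1 CPM in Dnmt3a libraries, against 76.8, 79.2 and 75.6 CPM in GFP libraries. It had 66.1, 71.3 and 76.8 CPM in shDnmt3a libraries, against 289, 279 and 294 CPM in shScr libraries. The shScr libraries stood far above the other 9, and the shDnmt3a range overlapped both the Dnmt3a and the GFP range. Knock-down gave a log2 fold change of −2.002 (SE 0.05, adjusted p = 3.19e-17), and the value was −0.14 (SE 0.04, adjusted p = 0.0112) in Dnmt3a against GFP, where the call was lost without Dnmt3a replicate 3 (adjusted p = 0.0569).

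Ifit1 had 67.5, 68.3 and 66.6 CPM in Dnmt3a libraries, against 82.9, 85.7 and 84.5 CPM in GFP libraries. It had 82.9, 84.0 and 91.5 CPM in shDnmt3a libraries, against 295, 273 and 274 CPM in shScr libraries. The shDnmt3a and GFP ranges met, and the log2 fold changes were −0.33 (SE 0.04, adjusted p = 1.11e-07) and −1.70 (SE 0.04, adjusted p = 1.80e-16). Ifit2, also of the cluster, had log2 fold changes of −0.30 in Dnmt3a against GFP and −0.86 on knock-down. Of the 50-base stretches of the Ifit3 transcript, 51.5% also occur in I830012O16Rik, and with the counts of both summed the values were −0.11 and −1.93, both past the threshold.

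Oligoadenylate synthetases sense double-stranded RNA and activate the RNA-degrading enzyme RNase L, and several lie side by side on chromosome 5. Of 7 tested, 6 fell in Dnmt3a against GFP and 6 on knock-down, where 12.9% and 22.5% of all features fell. This role had the lowest median of the 9 roles in Dnmt3a against GFP (−0.57). Oas1a had 6.62, 6.04 and 5.64 CPM in Dnmt3a libraries, against 9.20, 9.05 and 7.92 CPM in GFP libraries, and 9.38, 11.4 and 10.6 CPM in shDnmt3a libraries, against 33.8, 35.4 and 34.3 CPM in shScr libraries. Oas1g had 2.45, 2.52 and 2.21 CPM in Dnmt3a libraries, against 3.43, 4.10 and 3.72 CPM in GFP libraries, and 4.58, 4.67 and 4.79 CPM in shDnmt3a libraries, against 17.1, 16.6 and 17.2 CPM in shScr libraries. Both genes had separate groups in both comparisons. The log2 fold changes of Oas1a were −0.52 (SE 0.10, adjusted p = 6.47e-05) and −1.71 (SE 0.07, adjusted p = 1.87e-13), and those of Oas1g −0.65 (SE 0.14, adjusted p = 0.000479) and −1.85 (SE 0.08, adjusted p = 4.68e-13). These paralogs share 57.1% of the 50-base stretches of Oas1a, and their summed counts gave −0.56 and −1.76.

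Oas3, the longest synthetase of the family, had 3.16, 2.13 and 3.08 CPM in Dnmt3a libraries, against 5.23, 4.77 and 4.12 CPM in GFP libraries. It had 9.30, 10.2 and 10.2 CPM in shDnmt3a libraries, against 15.1, 14.5 and 14.04 CPM in shScr libraries. Its shDnmt3a libraries lay well above the GFP libraries. Oas3 changed by −0.74 (SE 0.14, adjusted p = 7.90e-05) and by −0.55 (SE 0.07, adjusted p = 6.32e-06) on the log2 scale, and the difference between them was not past the threshold (0.19, SE 0.16, adjusted p = 0.367). Oasl1, whose protein has lost the enzymatic activity of the family, was low, at 3 to 34 counts per library, and passed in neither comparison (−0.78, SE 0.41, adjusted p = 0.165, and 0.07, SE 0.33, adjusted p = 0.879). Its call in Dnmt3a against GFP appeared without Dnmt3a replicate 1 (adjusted p = 0.0255).

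The antiviral effectors contained both the largest fall on overexpression and the main exception on knock-down. Mx2, a dynamin-like GTPase that blocks viral replication, had 31.7, 28.97 and 28.7 CPM in Dnmt3a libraries, against 54.3, 53.7 and 53.3 CPM in GFP libraries. It had 31.7, 32.4 and 34.8 CPM in shDnmt3a libraries, against 90.7, 85.6 and 90.8 CPM in shScr libraries. The Dnmt3a and shDnmt3a libraries thus both lay below both controls. Its fold changes on the log2 scale were −0.85 (SE 0.05, adjusted p = 4.09e-15) and −1.43 (SE 0.05, adjusted p = 7.62e-15).

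Its neighbour Mx1 had 4.75, 4.05 and 5.54 CPM in Dnmt3a libraries, against 7.88, 7.39 and 7.55 CPM in GFP libraries. It had 3.75, 3.51 and 3.92 CPM in shDnmt3a libraries, against 11.3, 10.5 and 11.6 CPM in shScr libraries. Mx1, like Mx2, was lower in Dnmt3a and shDnmt3a libraries than in either control. Mx1 had log2 fold changes of −0.66 (SE 0.11, adjusted p = 9.64e-06) and −1.57 (SE 0.09, adjusted p = 6.75e-11). Cmpk2, a nucleotide kinase, lies beside Rsad2, which encodes the antiviral enzyme viperin, on chromosome 12. It had 8.46, 7.22 and 9.69 CPM in Dnmt3a libraries, against 9.68, 9.96 and 9.88 CPM in GFP libraries, which overlapped. It had 7.99, 8.95 and 8.51 CPM in shDnmt3a libraries, against 27.9, 25.4 and 27.2 CPM in shScr libraries. The log2 fold change was −1.65 (SE 0.07, adjusted p = 4.12e-13) on knock-down and −0.21 (SE 0.09, adjusted p = 0.0924) in Dnmt3a against GFP, where it passed without Dnmt3a replicate 3 (−0.32, adjusted p = 0.0203). Rsad2 fell in both, by 0.37 and 1.24 on the log2 scale.

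Isg20, an exonuclease that degrades single-stranded RNA, rose on knock-down while 46 other genes of the list fell. It had 6.27, 6.51 and 5.47 CPM in Dnmt3a libraries, against 5.54, 6.15 and 5.88 CPM in GFP libraries, and these ranges overlapped. It had 9.46, 8.45 and 8.77 CPM in shDnmt3a libraries, against 4.22, 4.21 and 4.78 CPM in shScr libraries, so the hairpin groups were far apart. The log2 fold change was 0.05 (SE 0.10, adjusted p = 0.785) in Dnmt3a against GFP and 1.02 (SE 0.10, adjusted p = 5.29e-08) on knock-down. Its 3 promoter windows held no ISRE core. Samhd1, which degrades the nucleotides that viruses need, did not pass on knock-down (−0.09, SE 0.05) and fell in Dnmt3a against GFP (−0.32, SE 0.05).

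Bst2, which tethers budding virus to the cell surface, had a log2 fold change of −1.002 (SE 0.04) on knock-down and −0.05 (SE 0.05, not past the threshold) in Dnmt3a against GFP. The difference between these 2 changes was itself past the threshold (−0.96, SE 0.06). The call of Ifitm3, which blocks viral entry, in Dnmt3a against GFP (−0.17, adjusted p = 0.0114) was lost without GFP replicate 2 or Dnmt3a replicate 2 (adjusted p = 0.0651 and 0.102). The remaining effectors, Rtp4 and Xaf1, fell in both comparisons.

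The interferon-inducible GTPases attack the vacuoles of intracellular microbes. On knock-down 8 of 8 tested fell, where 22.5% of all features fell. In Dnmt3a against GFP 6 of 8 fell, where 12.9% of all features fell, Gbp10 and Iigp1 not passing. Gbp10 had 1.75, 1.17 and 1.27 CPM in Dnmt3a libraries, against 1.99, 1.36 and 1.65 CPM in GFP libraries, which overlapped. It had 2.11, 2.33 and 2.03 CPM in shDnmt3a libraries, against 11.1, 11.2 and 9.62 CPM in shScr libraries. The knock-down value of −2.29 (SE 0.11, adjusted p = 2.68e-12) was the lowest of the list. Of the 50-base stretches of Gbp10, 79.8% also occur in another transcript, so its value is uncertain wherever reads could be split between such copies. In Dnmt3a against GFP the value was −0.25 (SE 0.20, adjusted p = 0.383).

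Gbp5 had 2.53, 2.17 and 1.88 CPM in Dnmt3a libraries, against 3.62, 3.11 and 3.52 CPM in GFP libraries. It had 1.64, 1.71 and 1.86 CPM in shDnmt3a libraries, against 2.44, 2.77 and 3.18 CPM in shScr libraries. Gbp5 was separate in both comparisons by similar steps, −0.65 (SE 0.15, adjusted p = 0.00102) and −0.68 (SE 0.16, adjusted p = 0.00143), and it was the GTPase whose shScr level did not exceed the GFP level. Among the others, Gbp3, with its pair of overlapping cores, had log2 fold changes of −0.35 and −1.10. Irgm2, left out of the tests, had 3, 2 and 5 counts in Dnmt3a libraries, against 3, 1 and 7 counts in GFP libraries. It had 5, 5 and 4 counts in shDnmt3a libraries, against 7, 16 and 9 counts in shScr libraries. At this depth no fold change is given for it.

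Isg15 encodes a ubiquitin-like protein that is attached to other proteins, and Usp18 removes it and also dampens receptor signalling. Usp18 had 26.9, 30.3 and 29.2 CPM in Dnmt3a libraries, against 37.3, 38.5 and 37.4 CPM in GFP libraries. It had 40.3, 40.0 and 41.2 CPM in shDnmt3a libraries, against 105, 103 and 108 CPM in shScr libraries. All 4 groups were separate for Usp18. Its changes were −0.40 (SE 0.05, adjusted p = 6.43e-07) and −1.37 (SE 0.04, adjusted p = 1.49e-15) on the log2 scale. Isg15 fell by 0.61 and by 1.58 on the log2 scale, and the ubiquitin ligase Trim25 by 0.26 and 0.54. Trim21, an antibody receptor with ligase activity, fell on knock-down (−0.55) and had −0.10 (not past the threshold) in Dnmt3a against GFP.

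Parp12 and Parp14 encode ADP-ribosyltransferases. Parp12 had 29.2, 26.3 and 28.5 CPM in Dnmt3a libraries, against 33.3, 33.8 and 31.7 CPM in GFP libraries. It had 33.8, 33.7 and 33.7 CPM in shDnmt3a libraries, against 59.8, 58.4 and 57.6 CPM in shScr libraries. Parp12 showed separate groups in both comparisons, with log2 fold changes of −0.23 (SE 0.06, adjusted p = 0.00157) and −0.79 (SE 0.04, adjusted p = 3.05e-11). Parp14 fell by 0.36 and 0.61 on the log2 scale.

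Among the remaining genes, Ifi27l2a was the only one of the 49 that rose in Dnmt3a libraries. It had 154, 170 and 177 CPM in Dnmt3a libraries, against 105, 116 and 109 CPM in GFP libraries. It had 130, 139 and 143 CPM in shDnmt3a libraries, against 291, 260 and 308 CPM in shScr libraries. The 2 comparisons thus went opposite ways, by 0.60 (SE 0.05, adjusted p = 2.30e-12) in Dnmt3a against GFP and −1.05 (SE 0.05, adjusted p = 2.53e-12) on knock-down. Of its 50-base stretches 40.8% occur in Ifi27l2b, and summed counts gave 0.60 and −1.05. Per kilobase it was the most abundant gene of the list in every group, at 360 CPM per kilobase in Dnmt3a libraries, against 237 in GFP libraries, and 296 in shDnmt3a libraries, against 618 in shScr libraries.

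Ifi44, an interferon-induced gene of the antiviral program, had 14.3, 12.8 and 12.4 CPM in Dnmt3a libraries, against 20.3, 22.4 and 23.9 CPM in GFP libraries. It had 43.6, 42.3 and 43.9 CPM in shDnmt3a libraries, against 88.0, 82.3 and 79.8 CPM in shScr libraries. All 4 groups of Ifi44 were separate, and shDnmt3a libraries lay well above GFP libraries. Ifi44 had log2 fold changes of −0.76 (SE 0.07, adjusted p = 5.30e-10) and −0.94 (SE 0.05, adjusted p = 2.58e-12). Sp100, a nuclear body protein, fell in both (−0.43 and −0.96). Ifi35 fell on knock-down (−0.79) and had −0.07 (not past the threshold) in Dnmt3a against GFP. The call of Lgals3bp, a secreted glycoprotein, in Dnmt3a against GFP (−0.14, adjusted p = 0.00915) was lost without GFP replicate 3 or Dnmt3a replicate 2 (adjusted p = 0.0672 and 0.0895).

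**Figure D3:**
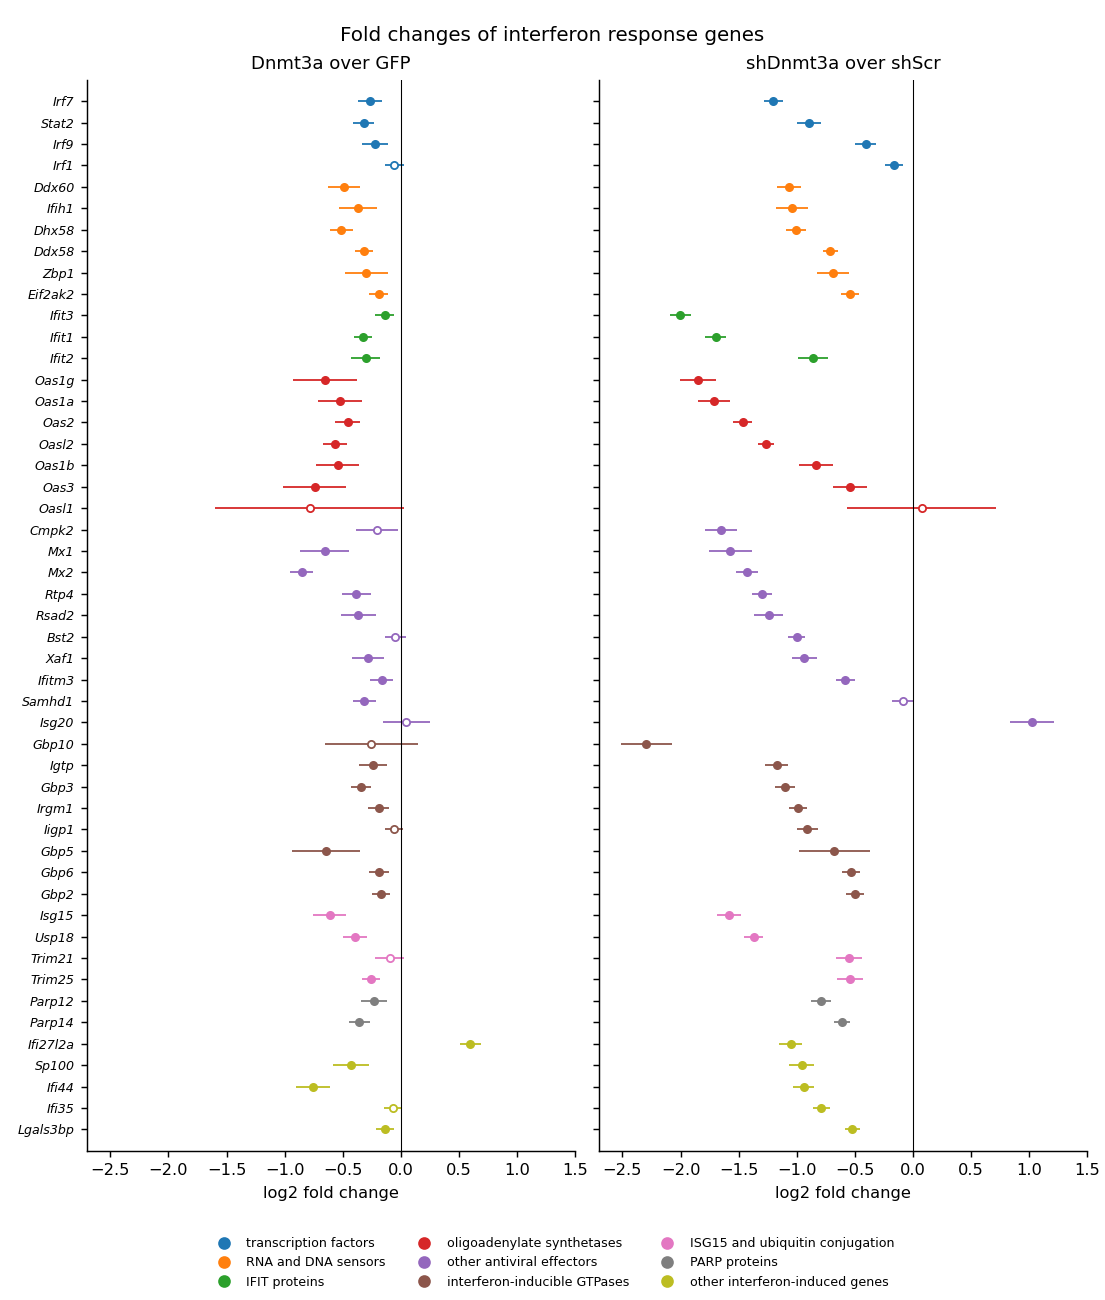
Log2 fold changes of the 49 tested genes, grouped by role, for Dnmt3a over GFP (left) and shDnmt3a over shScr (right); bars are 1.96 standard errors either way and open circles did not pass the test. On the left 39 genes fell and only Ifi27l2a rose, and on the right 46 fell and only Isg20 rose.

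The sizes of the 2 changes were weakly related. Over the 49 genes, Pearson's r between the log2 fold changes was 0.23 and Spearman's rho was 0.34, a description across genes of 4 groups of libraries. Whether a gene's 2 changes differ was tested as the shDnmt3a against shScr change minus the Dnmt3a against GFP change in 1 fit of all 12 libraries. This difference was called below 0 for 42 of 49 genes, where 20.4% of all 14491 tested features were called below 0. It was called above 0 for 2, Isg20 (0.97, SE 0.14) and Samhd1 (0.22, SE 0.07), where 19.9% of all features were called above 0. The median difference was −0.58 over the genes and 0.02 over all features. The largest differences were those of Gbp10 (−2.05, subject to its shared sequence), Ifit3 (−1.87) and Ifi27l2a (−1.66). For Irf1, Oas3, Oasl1, Gbp5 and Ifi44 the difference did not pass the test. The call of Samhd1 was lost without Dnmt3a replicate 3 (adjusted p = 0.0528). Those of Irf9 (adjusted p = 0.0410) and Oas1b (adjusted p = 0.0358) were each lost under DESeq2 (0.0578 and 0.0734) and without any of several single libraries, among them GFP replicate 3 (0.0766 and 0.0779). Ifi44 passed without GFP replicate 3 (0.0261) or Dnmt3a replicate 3 (0.0391).

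**Figure D4:**
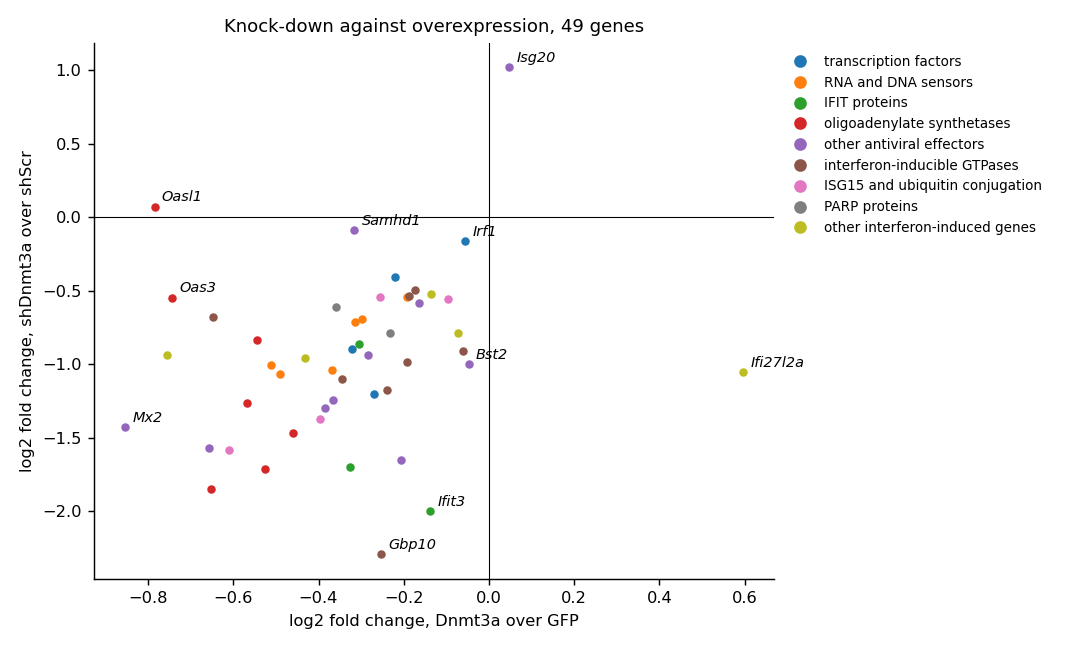
Each point is 1 of the 49 genes, with its log2 fold change of Dnmt3a over GFP on the x axis and of shDnmt3a over shScr on the y axis, coloured by role. Most points lie below 0 on both axes, and Isg20 (0.05, 1.02) and Ifi27l2a (0.60, −1.05) lie apart.

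Since the knock-down control was the group with the highest levels, both hairpin groups were also set against GFP in 1 fit of all libraries. These comparisons share the GFP libraries with Dnmt3a against GFP and the shScr or shDnmt3a libraries with the knock-down comparison, so they describe where each group lies and are not independent of the values above. GFP and hairpin libraries also differ in vector, which cannot be told apart from any effect of the insert.

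In shScr against GFP, 45 of 49 genes were higher, 2 were lower and 2 did not pass, where 23.7% of 14491 features were higher and 22.8% lower. The median log2 difference was 1.03 over the genes and −0.01 over all features. Gbp10 (2.67, uncertain for its shared sequence), Oas1g (2.18) and Bst2 (1.98) had the highest values. Isg20 (−0.41) and Samhd1 (−0.13) were the 2 that were lower, and Oasl1 and Gbp5 did not pass. The call of Samhd1 was lost without GFP replicate 2 (adjusted p = 0.102), GFP replicate 3 (0.0502), shScr replicate 1 (0.0590) or shScr replicate 3 (0.0798). That of Trim25 (0.13, adjusted p = 0.0352) was lost without either of those GFP libraries (0.0993 and 0.0769), without shScr replicate 2 (0.134) or without shScr replicate 3 (0.149). Gbp5 passed as lower without shScr replicate 3 (0.0444).

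In shDnmt3a against GFP the genes spread to both sides: 25 were higher, 9 were lower and 15 did not pass, where 23.6% of 14491 features were higher and 22.8% lower. The median was 0.13 over the genes and −0.01 over all features. For 40 of the 49 genes the shDnmt3a level lay within 0.5 log2 units of the GFP level, against 8 for shScr. The share of all features within this distance was not counted, so these counts describe the list alone. The lower genes were Mx1 (−1.03), Gbp5 (−0.98), Mx2 (−0.71), Ifi35, Trim25, Iigp1, Samhd1, Cmpk2 and Ifit3, and the highest were Oas3 (1.06), Bst2 (0.98) and Ifi44 (0.97). So Mx1 and Mx2, which ended below GFP, and Oas3 and Ifi44, which ended above it, all fell on knock-down relative to shScr. The 15 that did not pass lay between −0.13 and 0.37: Irf1, Irf7, Ifih1, Eif2ak2, Ifit1, Ifit2, Oas1b, Oasl1, Xaf1, Gbp6, Gbp10, Igtp, Usp18, Trim21 and Parp12. For 8 genes leaving out 1 library lost the call: Cmpk2 (any GFP library, or shDnmt3a replicate 1 or 3), Ifit3 (GFP 1 or 2, shDnmt3a 1 or 2), Isg15 (GFP 1 or 3, shDnmt3a 1 or 2), Stat2 (GFP 2 or 3, shDnmt3a 1), Oas1a (GFP 3, shDnmt3a 2), Oas2 (GFP 2, shDnmt3a 2), Ifitm3 (GFP 1, shDnmt3a 2) and Oas1g (GFP 1), and Gbp10 passed as higher without GFP replicate 1.

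**Figure D5:**
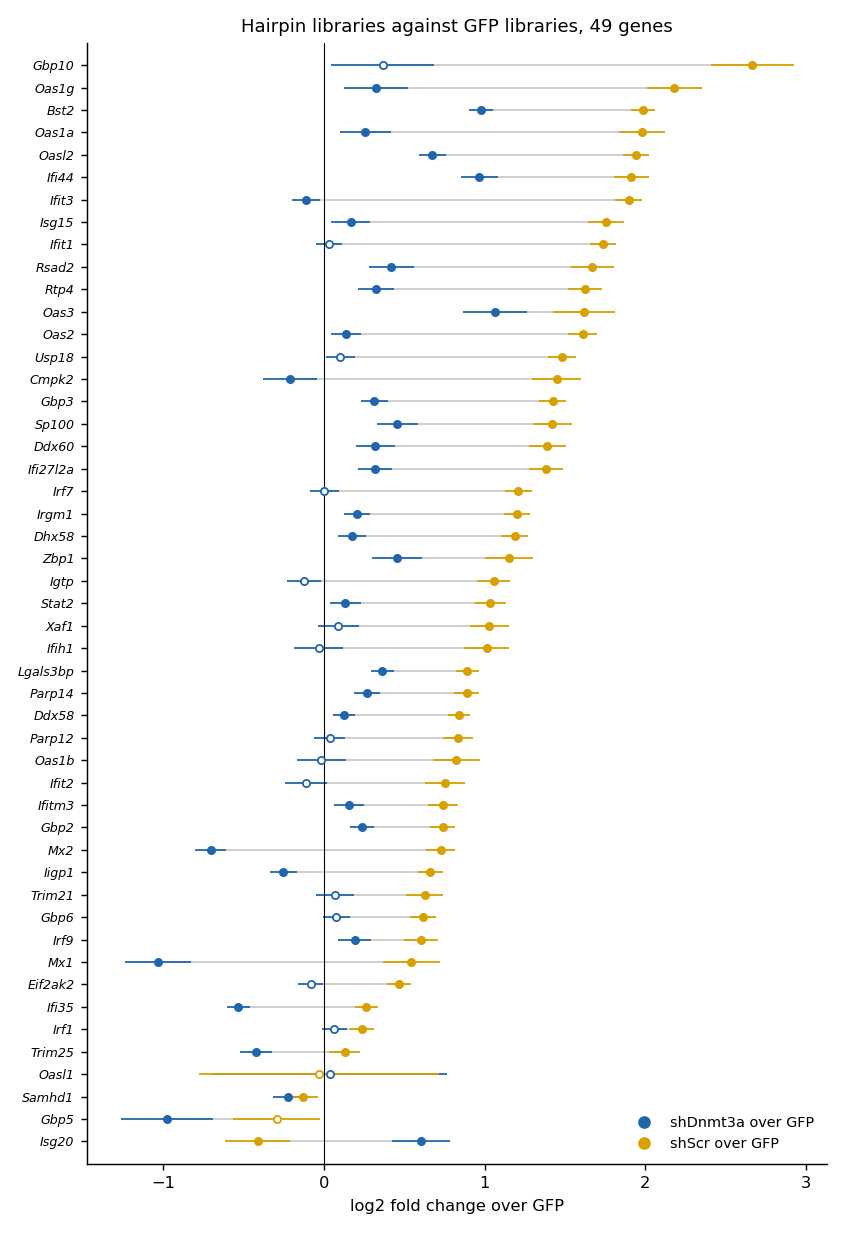
Log2 fold changes over GFP for shDnmt3a (blue) and shScr (yellow) libraries, 49 genes in order of the shScr value; bars are 1.96 standard errors either way and open circles did not pass the test. For 45 genes shScr was called higher than GFP, while 40 of the 49 shDnmt3a values lie within 0.5 of 0. The share of all features within this distance was not counted.

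The rest of the pathway was followed from its ligands to its targets. Interferon genes were hardly detected: the 19 ligand genes with a feature summed to 0.127 to 0.213 CPM in Dnmt3a libraries, 0.113 to 0.193 CPM in shDnmt3a libraries, 0.0527 to 0.130 CPM in shScr libraries and 0.0852 to 0.293 CPM in GFP libraries, and none could be tested. Ifnb1 averaged 0.917 counts a library, with at most 4. A difference in interferon transcripts was therefore not detectable at this depth.

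Receptors and kinases moved little. On knock-down they moved in both directions, while in Dnmt3a against GFP the kinases named here fell. The knock-down counts of the receptors, negative regulators, sensing genes and class II targets are read against the 22.5% of all features that fell and the 23.3% that rose, and those in Dnmt3a against GFP against 12.9% and 14.3%. These lists are short, and nothing is read from their counts as particular to them. On knock-down Ifnar1 fell (−0.31, SE 0.04) while Ifnar2 had 0.01, and the interferon gamma receptor chains Ifngr1 and Ifngr2 rose (0.29 and 0.25). Il10rb, shared by the lambda interferon receptor, fell (−0.12). In Dnmt3a against GFP 1 of these 5 tested receptors passed, Ifnar2 (0.16). Among the kinases and STAT genes named here, Jak1 fell in both comparisons (−0.12 and −0.22), whereas Jak2, Tyk2 and Stat3 fell in Dnmt3a against GFP (−0.25, −0.21 and −0.14) and rose on knock-down (0.28, 0.22 and 0.18).

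Of the 6 negative regulators, 3 rose on knock-down and none fell: Socs3, which inhibits cytokine receptors (0.85), Pias1 (0.34) and Ptpn2, a phosphatase of Jak kinases (0.29). In Dnmt3a against GFP 2 of 6 fell, Ptpn2 (−0.15) and Irf2 (−0.20). Of 12 tested genes of nucleic acid sensing upstream of interferon, 2 fell and 3 rose on knock-down, those with the smallest p being Tlr3, a receptor of double-stranded RNA (−0.48), Traf6 (0.35) and Ticam1 (0.39), and the median was −0.00018. In Dnmt3a against GFP 3 of 13 fell and 1 rose. Of 8 tested class II and interferon gamma targets, 1 fell on knock-down, the chemokine Cxcl10 (−1.27), and 1 rose, Cd74, the class II invariant chain (1.54). Socs1, next by p in this list, had −0.31 (not past the threshold). In Dnmt3a against GFP 3 of 8 fell.

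A further 32 tested interferon-induced genes lie outside the list, among them Tlr3, already named. On knock-down 28 fell and 2 rose with a median of −0.56, where 22.5% of all features fell and 23.3% rose. In Dnmt3a against GFP 20 fell and 2 rose with a median of −0.23, where 12.9% of all features fell and 14.3% rose. In shScr against GFP 26 were higher and 1 lower, with a median of 0.54, where 23.7% of all features were higher and 22.8% lower. Those with the smallest p on knock-down were I830012O16Rik, the Ifit3 paralog (−1.77), Gm12250 (−1.58) and the guanylate-binding protein Gbp9 (−1.67).

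Markers of other cells were followed beside these values. The 12 macrophage and leukocyte markers summed to 17.7 to 20.3 CPM in Dnmt3a libraries, against 16.8 to 17.6 CPM in GFP libraries. They summed to 17.2 to 18.0 CPM in shDnmt3a libraries, against 28.3 to 29.2 CPM in shScr libraries. The high shScr sum came from 1 gene, Mpeg1, a macrophage perforin, with 5.55 to 5.91 CPM in shDnmt3a libraries, against 17.6 to 18.1 CPM in shScr libraries. Without Mpeg1, a sum formed after the data were seen, the other 11 markers had 15.4 to 17.4 CPM in Dnmt3a libraries, against 13.5 to 14.1 CPM in GFP libraries, and 11.5 to 12.3 CPM in shDnmt3a libraries, against 10.6 to 11.6 CPM in shScr libraries, so that shScr was no longer high. In shScr against GFP 3 of 8 tested markers were lower and 2 higher, with a median of −0.23, where 22.8% of all features were lower and 23.7% higher. On knock-down 2 of the 7 tested markers fell, Mpeg1 (−1.64) and Cd68 (−0.35), and 1 rose, Cd14 (0.44). Over all features 22.5% fell and 23.3% rose on knock-down, and nothing is read from the marker counts as particular to these markers. Emr1, the F4/80 antigen that defines mouse macrophages, was at 0 in all libraries, and Ptprc, which marks all leukocytes, averaged 0.128 to 0.157 CPM in the 4 groups.

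Preadipocyte and fibroblast markers summed to 12261 to 12321 CPM in shDnmt3a libraries, against 8179 to 8736 CPM in shScr libraries, and to 6188 to 6942 CPM in Dnmt3a libraries, against 6199 to 6479 CPM in GFP libraries. Most of this was the collagen gene Col3a1, which was then left out, again after the data were seen. The other 6 summed to 678 to 757 CPM in shDnmt3a libraries, against 764 to 834 CPM in shScr libraries. Without Col3a1 the sums were 598 to 608 CPM in Dnmt3a libraries, against 663 to 729 CPM in GFP libraries. On knock-down 4 of the 7 fell, among them Ly6a (−1.35), 2 rose, and the median was −0.14, where 22.5% of all features fell and 23.3% rose. In Dnmt3a against GFP 3 of the 7 fell and 1 rose, with a median of −0.04. Over all features 12.9% fell and 14.3% rose there. The structural RNAs and Lars2 list, a sign of RNA quality, summed to 834 to 1360 CPM in Dnmt3a libraries, against 458 to 816 CPM in GFP libraries, and to 729 to 849 CPM in shDnmt3a libraries, against 475 to 798 CPM in shScr libraries. The part of these in the interferon results was not tested.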

How the data were processed

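RNA from 12 libraries was depleted of ribosomal RNA, sequenced and aligned by the authors to mm9 with TopHat2 2.0.14, and the deposited values are whole-number read counts per transcript feature from featureCounts 1.4.6, not normalized. The mm9 annotation was modified by the authors to reduce overlapping transcripts. Strand setting and treatment of multiply mapped reads are not given in the sources used here. Counts were tested with edgeR 4.0.16 (R 4.3.3) by the quasi-likelihood test, with TMM scaling, filterByExpr at a minimum count of 10 and Benjamini-Hochberg adjustment over all tested features, at adjusted p under 0.05. Each manipulation was fitted with its own control (6 libraries), and comparisons across vectors in 1 fit of 12. The test was checked on simulated counts. Alternatives were DESeq2 1.42.0, RLE size factors, other filters, summed features, a replicate block and leaving out each library. Values in every library are given for the 4 transcription factors, the 6 genes with the largest called change in each main comparison, genes called against the majority, and, for a role without any of these, the gene with the smallest p on knock-down; genes that did not pass where most passed are named, and of the other pathway lists the receptors, JAK-STAT genes and 3 genes with the smallest p on knock-down. A gene of these lists is not reported here. Irf2, Cd14, Cd68, Mpeg1, Col3a1, Ly6a and genes named for a lost call were chosen after their values were seen. The members and lists were chosen with earlier results of these data known. Loci and shared sequence were taken by symbol, without Gbp6, whose counted feature lies elsewhere in the table. Shared sequence was measured as 50-base stretches of GENCODE transcripts on NCBIM37 (mm9). Promoter windows were from RefSeq GRCm38.p6, with 13 genes having none. The common biological coefficient of variation was 3.98% to 4.03%, and libraries of a group differed by more than sampling noise (chi-square per degree of freedom 2.52 to 10.7).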

Additional observations from a re-analysis of the deposited data

How the results depend on the processing

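No median over the genes changed sign under any alternative run. In the 2 comparisons of a manipulation with its own control, no called gene among the 20 given library by library changed direction. The directions of the other genes were not compared across the alternatives. RLE size factors, DESeq2, 2 other filters on low counts, summed features and the other choice of libraries in the fit left every count of genes within 1.5 times its value. Leaving out 1 library moved the median of shDnmt3a against shScr to between −0.97 and −0.95, that of shScr against GFP to between 1.04 and 1.07, that of shDnmt3a against GFP to between 0.12 and 0.16 and that of the difference of the 2 changes to between −0.63 and −0.58; in part of these fits Irgm2 entered the test. The number of genes called lower in shScr than in GFP was 1 to 2, and of those with a difference called above 0 it was 1 to 2. At an adjusted p under 0.01 the count above 0 was 1. The 39 genes that fell in Dnmt3a against GFP became 36 to 39. In the 2 comparisons of a manipulation with its own control, the 20 genes given library by library kept their call in 525 values under the alternatives, lost it in 2 and gained it in 1; more calls changed in the comparisons with GFP and in the difference, as given with those results. Same-numbered libraries did not deviate together (correlations between −0.06 and 0.02). This gave no sign that the numbers pair libraries, but it cannot exclude a small shared effect. With a replicate block 39 genes fell in Dnmt3a against GFP and 46 on knock-down, with medians of −0.31 and −0.94. In the same setting 44 were higher in shScr than in GFP. Summing Oas1a with Oas1g, Ifit3 with I830012O16Rik and Ifi27l2a with Ifi27l2b, an alternative chosen after seeing the data, changed no call. Counts under about 20, as for Oasl1 and Irgm2, limit what can be said of those genes.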
